A study of Mus musculus with 3 samples.

Results

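The cadherin superfamily genes considered here are the classical cadherins, the protocadherins that lie outside the gene clusters, and the large Celsr, Fat and Dchs cadherins of the mouse. They were taken by name from the count table of sorted hippocampal neurons as the nuclear protein-coding genes named Cdh or Pcdh followed by a number only, together with Celsr1 to Celsr3, Fat1 to Fat4, Dchs1 and Dchs2. In all, 42 genes were found among 21883 nuclear protein-coding genes and 52636 genes of every kind. The measurement was poly(A) RNA-Seq of live tdTomato-positive cells, in 3 biological replicates, each pooled from 2 to 4 male Camk2a-Cre +/-, Ai14 +/- mice on the C57BL/6J background at postnatal day 28 to 32. In these mice the Camk2a promoter drives Cre in forebrain excitatory neurons, and Cre switches on tdTomato from the Ai14 reporter. All replicates belong to this 1 group, so there is no second condition, and the report gives levels and how they vary, with no test between groups.

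Cadherins are calcium-dependent adhesion proteins that join the membranes of neighbouring cells through repeated extracellular domains. Classical cadherins bind catenins on the inside of the cell, which tie them to actin, and at synapses they span the cleft between the presynaptic and postsynaptic membranes. Non-clustered protocadherins use other cytoplasmic partners, among them the WAVE complex of actin regulators, while Celsr, Fat and Dchs proteins are known from planar cell polarity, axon guidance and growth control. In the hippocampus, the combination of cadherins on a neuron is known to bear on which synapses form and how they change with activity.

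The libraries held 48159841, 25686630 and 15833075 assigned counts in replicates 1, 2 and 3, of which 39513765, 20946739 and 12577633 fell on nuclear protein-coding genes. All 7 markers of CA1 pyramidal neurons reached at least 1 CPM, a count scaled to a library of 1e6 assigned counts, in all replicates, with a summed level of 1549 to 1701 TPM. TPM here is the count per exon length, scaled so that the nuclear protein-coding genes sum to 1e6, computed from the counts and the merged exon length of each gene. The samples are labelled as CA1 pyramidal neurons, but markers of other cells were present as well, with sums of 1068 to 1164 TPM over 5 dentate granule markers, 186 to 193 TPM over 4 CA3 markers, 760 to 876 TPM over 6 oligodendrocyte markers, 162 to 327 TPM over 7 astrocyte markers and 20.1 to 83.9 TPM over 6 endothelial markers. Among interneuron markers, the GABA synthesis gene Gad1 had 54.3, 43.0 and 59.1 TPM, and the vesicular GABA transporter Slc32a1 had 19, 0 and 0 counts. In such a bulk sample, more cells of a type and more RNA per cell cannot be told apart.

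The family was expressed over a very wide range, from Pcdh1 at 377 ± 27.0 TPM (SD, n = 3) to Cdh17, which had 0 counts in every replicate. At least 1 CPM in all replicates was found for 31 of the 42 members (73.8%), against a background of 57.0% of all nuclear protein-coding genes. This rule favours long transcripts, and the median merged exon length was 7903 bp for the members and 3328 bp for all nuclear protein-coding genes. Per length, 7 members (16.7%) had a mean of at least 100 TPM, against 11.3% of all nuclear protein-coding genes, and 21 (50%) had at least 10 TPM, against 47.0%. A further 12 members lay between 1 and 10 TPM and 9 below 1 TPM. The median over the 42 members was 11.7 ± 1.06 TPM (SD of the replicate medians), and that over all nuclear protein-coding genes was 7.07 ± 0.481 TPM. Over the genes that reached the CPM threshold alone, the order was the other way, with medians of 22.6 TPM for members and 37.6 TPM for all such genes. The summed level of the family was 1893 ± 22.9 TPM, and the 5 highest members, Pcdh1, Celsr2, Pcdh20, Celsr3 and Pcdh8, held 57.8% ± 2.88 of it.

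**Figure D1:**
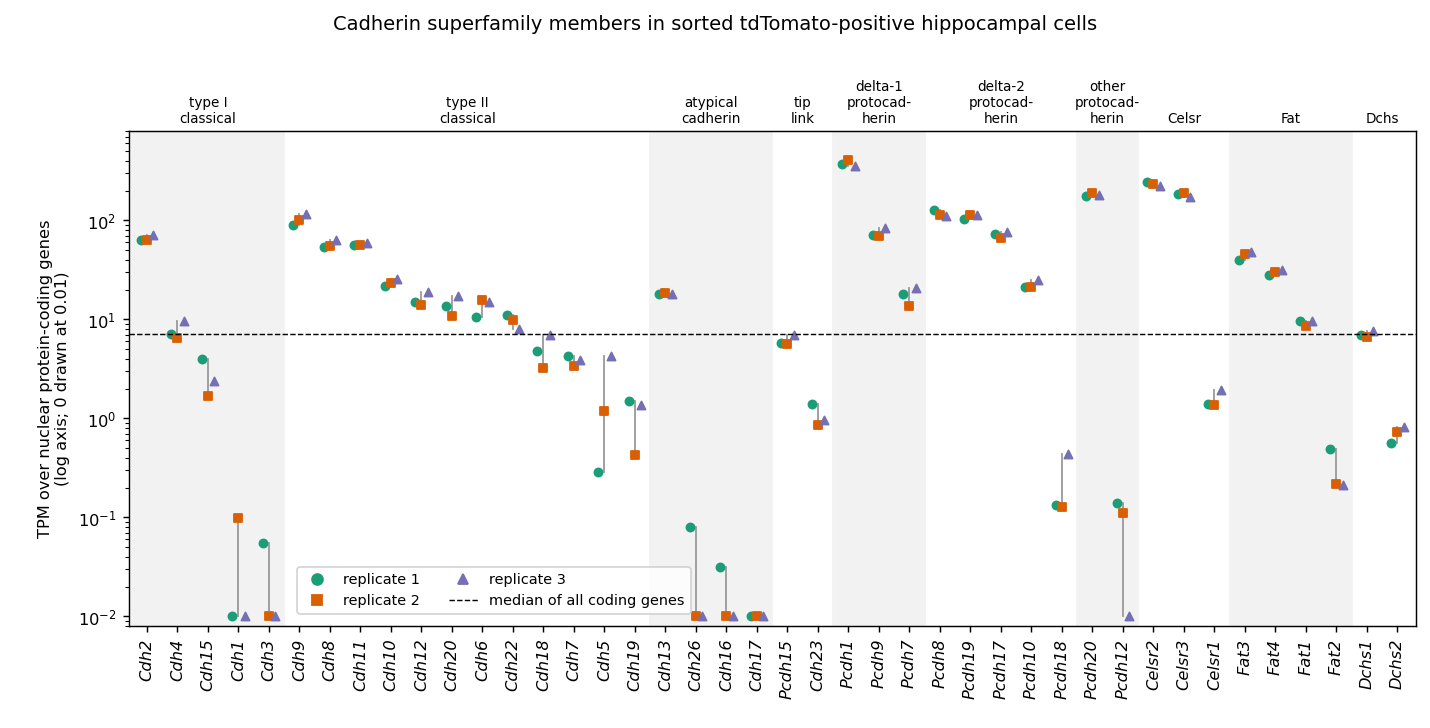
TPM over nuclear protein-coding genes on a log axis for each of the 42 members in replicates 1 to 3, grouped by class, with 0 drawn at 0.01, grey lines for the range and a dashed line at the median of all nuclear protein-coding genes, 7.07 TPM. Pcdh1 lies highest with 353 to 406 TPM, and Cdh1, Cdh3, Cdh16, Cdh17, Cdh26 and Pcdh12 have at least 1 replicate at 0.

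The delta-1 protocadherins had the largest summed level of all classes, 469 ± 17.5 TPM. Pcdh1, a delta-1 protocadherin known from epithelia and brain, had 371, 406 and 353 TPM in replicates 1, 2 and 3, from 27223, 15779 and 8009 counts. Every replicate of Pcdh1 lay above every replicate of all other members, the nearest of which was Celsr2 with at most 247 TPM. Pcdh9, a delta-1 protocadherin with a gene of 877 kb, had 70.7, 69.1 and 84.0 TPM. Pcdh7, which like its subclass is known to bind protein phosphatase 1, was lower and more variable, with 18.02, 13.7 and 20.6 TPM, and replicate 2 was the lowest. Pcdh1 was thus 20.6, 29.5 and 17.1 times as abundant as Pcdh7 in the single replicates. Of the exon bases of Pcdh7, 21.1% are shared with the antisense gene 4932441J04Rik, and the strand setting of the counts is not given in the sources used here.

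Of the 5 delta-2 protocadherins, 4 reached at least 1 CPM in all replicates. Pcdh8, known in rat as the activity-induced arcadlin that takes part in the removal of N-cadherin from synapses, had 128, 114 and 111 TPM. Pcdh19, the X-linked gene whose human counterpart is mutated in an epilepsy of females, had 105, 114 and 113 TPM. These ranges overlapped, and Pcdh8 was the higher in 2 of 3 replicates. Pcdh17, known from synapses of corticostriatal circuits, had 73.6, 67.3 and 76.3 TPM, and its range overlapped with that of Pcdh9. Pcdh10, known in mouse from the removal of excitatory synapses, had 21.5, 21.5 and 24.9 TPM, well below both. The remaining delta-2 gene, Pcdh18, had 6, 3 and 6 counts, or a mean of 0.231 ± 0.175 TPM.

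Pcdh20, which is placed in neither subclass here, was as abundant as the large Celsr3. It had 177, 190 and 182 TPM, and Celsr3 had 185, 189 and 171 TPM, so that their ranges overlapped. Its gene is compact, with 6.65 kb on chromosome 14 of GRCm38 from 88464743 to 88471396. As a group, the 5 delta-2 genes summed to 323 ± 5.72 TPM, which was 17.1% ± 0.448 of the family.

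The Celsr genes encode 7-pass receptors, the mammalian counterparts of Flamingo in the fly. Celsr2, known in mouse from dendrite growth and from ependymal cilia, had 247, 233 and 223 TPM, and lay above Celsr3, which guides axon tracts, in 3 of 3 replicates. The ratio of Celsr2 to Celsr3 was steady, at 1.33, 1.23 and 1.30. Celsr1, known from neural tube closure, had 1.40, 1.35 and 1.93 TPM from 129, 66 and 55 counts. The 3 genes thus fall into a high pair and 1 low member, a gap far wider than the spread between replicates.

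Fat3 and Fat4 were the more abundant of the giant Fat cadherins. Fat3, which in the mouse retina shapes the dendrites of amacrine cells, had 40.1, 45.4 and 47.8 TPM. Fat4 had 27.9, 30.1 and 31.8 TPM and was below Fat3 in every replicate with no overlap. Dchs1, the ligand to which Fat4 binds across the cell contact, had 7.04, 6.58 and 7.61 TPM. Fat4 was 3.96, 4.57 and 4.17 times as abundant as Dchs1 per length. Fat1 had 9.63, 8.52 and 9.66 TPM, while Dchs2 had 51, 35 and 23 counts and a mean of 0.710 ± 0.132 TPM. Fat2, which in the brain is known from cerebellar granule cells, had 60, 14 and 8 counts and did not reach a CPM of 1 in every replicate. Fjx1, a kinase gene of the same pathway, which modifies Fat and Dchs proteins, had 57.6 ± 4.74 TPM.

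N-cadherin was by far the most abundant type I classical cadherin. Cdh2, which encodes it and is the main classical cadherin of central synapses, had 63.8, 63.7 and 71.1 TPM from 4288, 2271 and 1480 counts. R-cadherin, Cdh4, had 7.06, 6.52 and 9.62 TPM, and Cdh2 was 9.03, 9.78 and 7.40 times as abundant. Cdh15, known from muscle and cerebellum, had 4.02, 1.67 and 2.39 TPM and narrowly missed the CPM threshold in replicate 2. The epithelial Cdh1, E-cadherin, had 0, 2 and 0 counts, and Cdh3, P-cadherin, had 2, 0 and 0 counts. For Cdh1 a count of 0 allows up to 0.0787 TPM in replicate 1 and 0.254 TPM in replicate 3.

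With exon lengths from the table, Cdh9 was the most abundant of the classical cadherins and above Cdh2 in each replicate. With the longest transcript of GENCODE vM21 as the length this order turned, with 71.7 TPM for Cdh9, below 85.1 TPM for Cdh2 and 74.7 TPM for Cdh8. For Cdh9 that transcript has 3539 bp, more than the 3219 bp of exons that were counted. Its value on that length is thus lowered by bases that were not counted. Cdh9 had 89.3, 101 and 117 TPM from 2398, 1430 and 968 counts, highest in replicate 3. In the mouse hippocampus Cdh9 is known from dentate granule and CA3 neurons, where it acts at mossy fibre synapses, and partners with Cdh6 and Cdh10 on CA1 neurons. The markers of those neurons were present in the same libraries, with 151 ± 19.0 TPM for the granule neuron factor Prox1 and 85.1 ± 2.26 TPM for the CA3 gene Grik4. Their part in the level of Cdh9 was not tested. Cdh10 had 21.9, 23.3 and 25.3 TPM and Cdh6 had 10.7, 15.6 and 15.2 TPM. Cdh9 was 4.07 to 4.60 times as abundant as Cdh10 and 6.46 to 8.34 times as abundant as Cdh6. Both ratios rest on exon lengths as well, since with the longest transcript Cdh10 averaged 48.5 TPM and Cdh6 3.43 TPM. The table gives Cdh6 only 2632 bp of exons, while its longest GENCODE vM21 transcript has 8167 bp, so the exons counted were not those of that transcript.

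Cdh8 and Cdh11 had overlapping levels. Cdh8, a type II cadherin of specific cortical and hippocampal circuits, had 53.4, 55.2 and 63.8 TPM. Cdh11, known from bone and brain, had 56.7, 56.2 and 59.3 TPM, and their ratio was 0.941, 0.983 and 1.08. Cdh12, a type II cadherin of the brain, had 14.8, 13.9 and 18.9 TPM, and Cdh20 had 13.8, 10.8 and 17.2 TPM, both lowest in replicate 2 and highest in replicate 3. Among the other type II genes, Cdh22 had 9.66 ± 1.57 TPM, Cdh18 5.002 ± 1.88 TPM and Cdh7 3.86 ± 0.423 TPM (SD, n = 3 each). Cdh19, known from the Schwann cell lineage, had 53, 8 and 15 counts. Over all 12 type II genes, 10 reached at least 1 CPM in all replicates and the sum was 306 ± 30.9 TPM, against 76.7 ± 5.77 TPM for the 5 type I genes.

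Cdh13, the cadherin without a cytoplasmic domain that is held by a lipid anchor, had 18.02, 18.5 and 17.9 TPM, or 34.5 TPM on average with the longest transcript as the length. The other 3 atypical genes were at or near 0. Cdh16 of the kidney had 1, 0 and 0 counts, Cdh26 had 2, 0 and 0 counts, and Cdh17 of the intestine had none, which allows up to 0.0804, 0.152 and 0.260 TPM in replicates 1, 2 and 3. The tip link pair of inner ear hair cells was present at a low level. Pcdh15 had 5.78, 5.69 and 6.93 TPM and its partner Cdh23 had 1.39, 0.855 and 0.961 TPM. The level of Pcdh15 depended on the length used, with a mean of 6.13 TPM as given and 12.35 TPM with the longest transcript. Of 8 genes for their partners in the hair cell, only Cib2 and Myo7a reached at least 1 CPM in all replicates, with 15.4 ± 0.958 and 11.98 ± 1.35 TPM.

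Cdh5 varied more between replicates than any other member with a count in all 3. Cdh5, VE-cadherin, is the classical cadherin of endothelial junctions, and it had 10, 22 and 46 counts although replicate 3 was the shallowest library. Its level was 0.285, 1.19 and 4.24 TPM, and the 95% Poisson intervals of the counts, 4.80 to 18.4, 13.8 to 33.3 and 33.7 to 61.4, cover counting error only. The summed level of 6 endothelial markers moved in the same order, with 20.1, 27.8 and 83.9 TPM. Its most abundant member, Cldn5, had 5.85, 10.6 and 49.4 TPM. Kdr and Tek had another order, with 1.53, 2.91 and 2.53 TPM for Kdr and 4.15, 3.75 and 8.89 TPM for Tek. Summed markers of other cells had the same order as Cdh5, with 12.4, 17.1 and 48.9 TPM over 4 mural markers and 37.5, 47.0 and 53.8 TPM over 5 microglial markers. Not every gene of those lists followed it. The mural Kcnj8 and the microglial Cx3cr1 were lowest in replicate 2, and the microglial C1qa was highest there. The part of RNA from any of these cells in the level of Cdh5 was not tested. Pcdh12, also known from endothelial cells, did not move with these genes and had 7, 3 and 0 counts, where a count of 0 in replicate 3 allows up to 0.192 TPM. Without replicate 3, the mean of Cdh5 was 0.735 TPM, against 1.90 TPM with it.

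**Figure D2:**
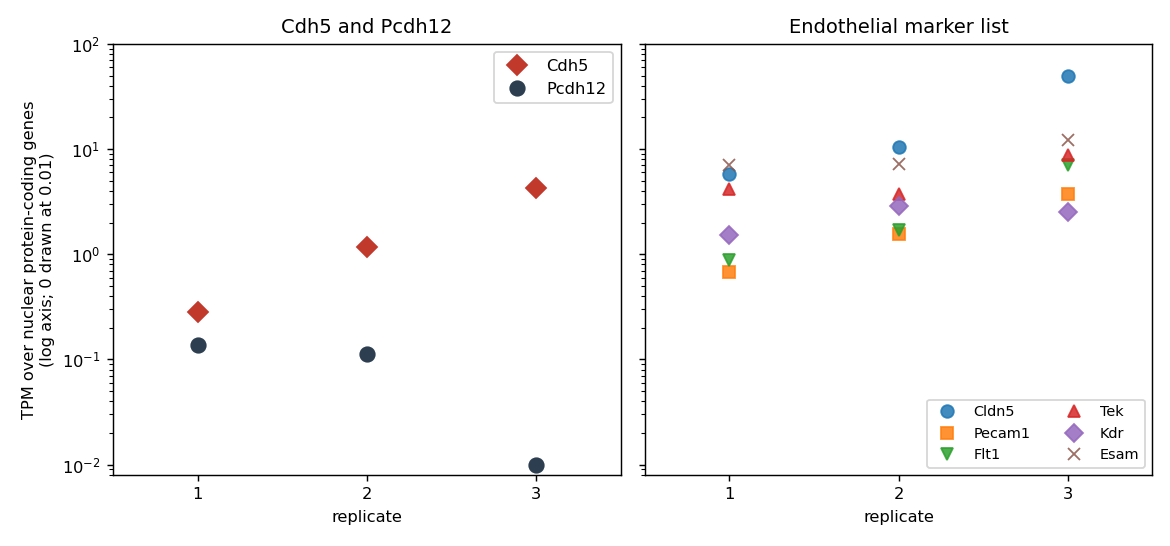
TPM on a log axis in replicates 1 to 3, with Cdh5 and Pcdh12 on the left, 6 endothelial markers on the right and 0 drawn at 0.01. Cdh5 has 0.285, 1.19 and 4.24 TPM and Cldn5 5.85, 10.6 and 49.4 TPM, while Pcdh12 has 0 in replicate 3.

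Members past the CPM threshold had a spread between replicates close to that of all such genes. Over the 31 members that reached the CPM threshold, the coefficient of variation of TPM over the 3 replicates (CV) had a median of 8.84%, against 8.49% over all nuclear protein-coding genes that did. It was below 10% in 17 of the 31 and above 20% in 5, which were Cdh18, Cdh23, Cdh20, Cdh4 and Celsr1. The spread exceeded counting error for most, since 24 of the 31 had a CV over 2 times what their counts alone would give. The same share over all genes past the threshold was not computed, so nothing particular to the members can be read from it. It also depends on depth, since counting error falls as counts rise. Cdh13 had the lowest CV of TPM, 1.79%, below the 3.46% that counting alone gives, but this depended on the scale. With counts scaled by median of ratios or by TMM its CV was 4.71% or 4.84%, above counting error, and the lowest was that of Cdh11, with 1.76% or 1.93%. Replicate 3 was the highest for 20 of the 31 members (64.5%), against 46.6% of all genes past the threshold. In 13 of the 31 members (41.9%), against 25.4% of those genes, replicate 3 was the highest and replicate 2 the lowest. With TMM scaling these shares were smaller for the members and for all such genes alike. They were 16 of the 31 (51.6%) against 29.9% for the highest replicate and 11 (35.5%) against 18.2% for the full order. In TPM this group comprised Cdh2, Cdh4, Cdh11, Cdh12, Cdh18, Cdh20, Celsr1, Dchs1, Fat1, Pcdh7, Pcdh9, Pcdh15 and Pcdh17. The summed astrocyte markers had the same order, with 260, 162 and 327 TPM in replicates 1, 2 and 3, although Gfap and Aqp4 of that list were highest in replicate 1. The summed interneuron markers had it too, with 94.5, 72.5 and 114.7 TPM, of which Gad1 had 54.3, 43.0 and 59.1 TPM. Gad2, Slc32a1 and Vip of that list were, however, highest in replicate 1. The part of either cell type in these members was not tested.

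**Figure D3:**
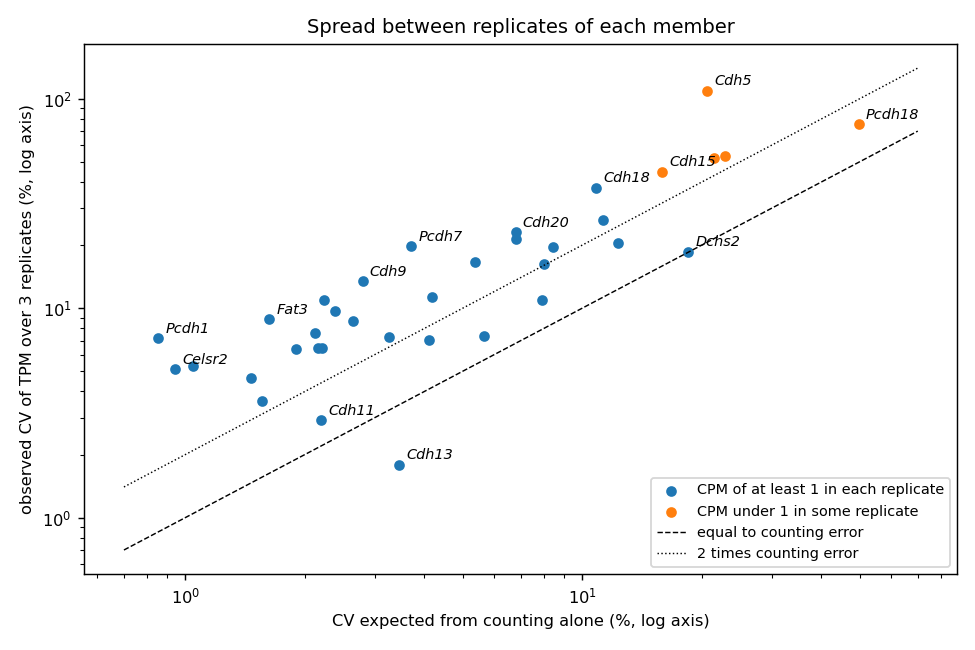
Observed CV of TPM over 3 replicates against the CV that counting alone would give, both in percent on log axes, for each member with a count in every replicate. On this scale Cdh13 lies below the line of equal values with 1.79% against 3.46%, and Cdh5 lies highest with 109%.

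The order of the members was largely kept between replicates, with a Spearman rho across the 42 genes of 0.990 to 0.993, a description over genes of the same libraries. Between neighbours in that order, however, most steps were small. Of the 41 pairs of neighbours, 31 had overlapping ranges and 10 did not. The steps without overlap were those from Pcdh1 to Celsr2, Celsr2 to Pcdh20, Celsr3 to Pcdh8, Cdh9 to Pcdh9, Cdh11 to Fat3, Fat3 to Fat4, Fat4 to Cdh10, Pcdh10 to Cdh13, Cdh23 to Dchs2 and Dchs2 to Fat2. The run from Pcdh9 through Pcdh17, Cdh2 and Cdh8 to Cdh11 was thus not separated step by step, and neither was that from Cdh13 down to Cdh23. The ranges cover replicates only, and the order rests on the exon length as well. With the longest transcript as the length, Cdh10 at 48.5 TPM lay above Fat4 at 24.6 TPM. Cdh13 at 34.5 TPM then also lay above Pcdh10 at 33.6 TPM.

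Members that lie next to each other on a chromosome did not always share a level. On chromosome 15, Cdh6, Cdh9 and Cdh10 follow each other with no other protein-coding gene between them, and their means were 13.8, 102 and 23.5 TPM. Cdh12 and Cdh18 come next, with 1 gene between Cdh10 and Cdh12, and had 15.9 and 5.002 TPM. On chromosome 8, Cdh8, Cdh11 and Cdh5 are consecutive, and the first pair had 57.5 and 57.4 TPM while Cdh5 had 1.90 TPM. On the same chromosome Cdh3 and Cdh1, 0.0461 Mb apart, were both at or near 0. On chromosome 14, Pcdh8, Pcdh17, Pcdh20 and Pcdh9 lie within a region with 3 other protein-coding genes between them, and all 4 had means over 70 TPM. The genes are long, with a median span of 111 kb against 17.2 kb for all nuclear protein-coding genes, and Pcdh15 spans 1550 kb. Among the 31 members past the threshold, the Spearman rho of span with mean TPM was -0.52, and among all 42 it was 0.07, as a description over genes that share the same libraries. The CPM threshold depends on level and length, so the 31 are a selected set and these values are not like for like.

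RefSeq promoter sequences of GRCm38.p6 run from 250 bases before to 50 after the start of a gene. Pcdh1, the most abundant member, Cdh2 and Pcdh12 were left out of all promoter results for members. Among the other members 28 were matched. In 22 of these the start lay within 1000 bases of the 5′ end in the count table. The following 5 are shown because they cross level with CpG content, in the strand of the gene and in lower case with every CpG in capitals. Celsr2 and Pcdh20 were among the most abundant members, Pcdh8 is the activity-induced one, and Pcdh18 and Cdh26 were at or near 0.
Celsr2 (chr3:108415530-108415829, minus strand): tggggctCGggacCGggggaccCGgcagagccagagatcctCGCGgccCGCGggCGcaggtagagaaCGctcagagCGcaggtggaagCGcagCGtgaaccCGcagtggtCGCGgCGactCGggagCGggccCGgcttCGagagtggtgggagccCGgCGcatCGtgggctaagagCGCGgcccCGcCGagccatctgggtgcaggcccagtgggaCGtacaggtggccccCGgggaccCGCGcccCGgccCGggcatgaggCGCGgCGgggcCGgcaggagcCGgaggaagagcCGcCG
Pcdh20 (chr14:88471347-88471646, minus strand): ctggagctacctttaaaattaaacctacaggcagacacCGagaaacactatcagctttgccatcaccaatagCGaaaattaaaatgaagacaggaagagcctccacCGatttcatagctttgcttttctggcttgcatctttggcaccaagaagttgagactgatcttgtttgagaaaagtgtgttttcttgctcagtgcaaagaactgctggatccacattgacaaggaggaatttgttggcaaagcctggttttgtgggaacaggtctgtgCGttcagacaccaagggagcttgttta
Pcdh8 (chr14:79771263-79771562, minus strand): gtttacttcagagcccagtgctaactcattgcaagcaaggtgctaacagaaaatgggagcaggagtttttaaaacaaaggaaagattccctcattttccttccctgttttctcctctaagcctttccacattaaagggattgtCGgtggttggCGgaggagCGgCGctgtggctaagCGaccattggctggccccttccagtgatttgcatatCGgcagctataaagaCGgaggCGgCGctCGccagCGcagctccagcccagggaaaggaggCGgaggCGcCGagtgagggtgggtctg
Pcdh18 (chr3:49757267-49757566, minus strand): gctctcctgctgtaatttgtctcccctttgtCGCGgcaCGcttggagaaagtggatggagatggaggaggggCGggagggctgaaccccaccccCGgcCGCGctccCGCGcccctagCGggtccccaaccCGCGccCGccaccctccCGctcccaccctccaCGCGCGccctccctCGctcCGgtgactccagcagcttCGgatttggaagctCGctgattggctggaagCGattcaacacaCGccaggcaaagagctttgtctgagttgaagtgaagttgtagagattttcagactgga
Cdh26 (chr2:178430265-178430564, plus strand): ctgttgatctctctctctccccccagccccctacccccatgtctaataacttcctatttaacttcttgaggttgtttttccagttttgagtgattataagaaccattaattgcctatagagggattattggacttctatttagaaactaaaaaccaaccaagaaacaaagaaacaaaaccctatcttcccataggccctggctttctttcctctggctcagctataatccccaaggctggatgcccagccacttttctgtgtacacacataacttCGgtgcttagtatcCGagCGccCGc
Celsr2 has 40 CpG dinucleotides in these 300 bases and Pcdh20 only 4, although both were among the 3 most abundant members. Pcdh18 has 23 and Cdh26 has 4, and neither reached a CPM of 1 in any replicate. Over the 22 members, 16 (72.7%) had at least 10 CpG, against 43.5% of all 32851 promoters of this length. These shares are not like for like. Only the members were limited to the nearest promoter within 1000 bases, and Pcdh1, Cdh2 and Pcdh12 are not among them. Of the members outside that limit, Cdh9, Cdh10, Fat1, Fat2 and Pcdh15 had 2 to 8 CpG and Cdh18 had 12. Over the 22 members the Spearman rho of CpG count with mean TPM was 0.24, again a description. The word TATAAA was searched on both strands and was found in 13.6% of all promoters and in 2 of the 31 promoters of members, those of Pcdh8 and Pcdh15, which for Pcdh15 lies far from the 5′ end in the count table. In Pcdh8 it begins 30 bases before the start. TGACGTCA, the full cAMP response element and its own reverse complement, was found in 1.79% of all promoters and in 0 of the 31.

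**Figure D4:**
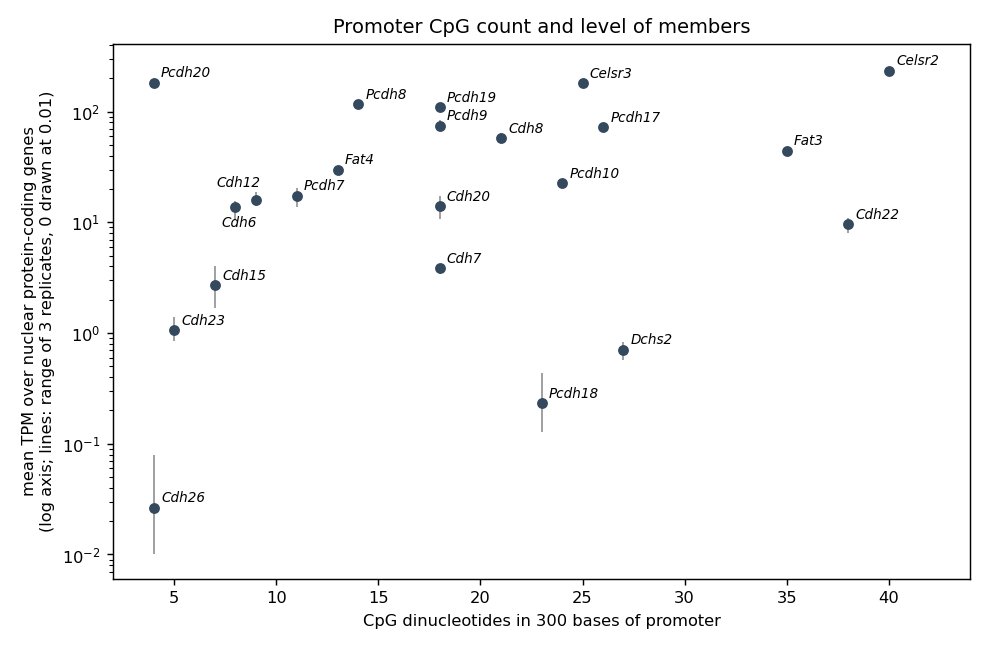
Mean TPM on a log axis against the number of CpG dinucleotides in 300 bases of promoter for 22 members outside chromosome 18, with vertical lines for the range of 3 replicates and 0 drawn at 0.01. Pcdh20 with 4 and Celsr2 with 40 CpG both lie at the top, and Cdh26 with 4 lies at the bottom.

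Genes for the intracellular partners were also present, as the plot of partner genes shows. Of 9 catenin genes, 8 reached at least 1 CPM in all replicates. Beta-catenin, Ctnnb1, which links classical cadherins to alpha-catenin, had 248, 202 and 212 TPM, and the 17 classical cadherins together had 357, 366 and 424 TPM. Their sum was thus 1.44, 1.81 and 2.00 times that of Ctnnb1. The neuronal alpha-catenin Ctnna2 had 47.5 ± 1.38 TPM, against 21.7 ± 4.18 TPM for Ctnna1. Among the delta-catenin family, Pkp4 with 194 ± 3.31 TPM and Ctnnd2 with 132 ± 2.29 TPM were far above Arvcf with 26.2 ± 3.00 TPM and Ctnnd1, p120-catenin, with 9.81 ± 0.647 TPM. Jup had 8.18 ± 1.43 TPM, and Ctnna3 with 24, 22 and 12 counts did not reach the threshold.

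Of 11 WAVE complex genes, 9 reached the threshold, and the list had the highest median of the partner gene lists, 207 ± 20.05 TPM. Wasf1 had 925 ± 27.5 TPM, Nckap1 746 ± 53.4 TPM and Cyfip2 506 ± 35.1 TPM, while Cyfip1 had 68.4 ± 7.13 TPM. Nckap1l and Abi3, the genes of immune cell forms, did not reach it. Of 11 planar polarity genes, 9 did, among them Prickle2 with 164 ± 3.61 TPM, Prickle1 with 140 ± 7.80 TPM and Fzd3, the receptor that works with Celsr3 in axon tracts, with 52.0 ± 2.75 TPM. Vangl2 had 22.6 ± 2.26 TPM and Vangl1 1.16 ± 0.456 TPM. Of 6 protease genes, 5 reached it, including Furin, which removes the prodomain of classical cadherins, with 29.3 ± 1.55 TPM, and Adam10, which sheds N-cadherin, with 93.3 ± 5.15 TPM.

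**Figure D5:**
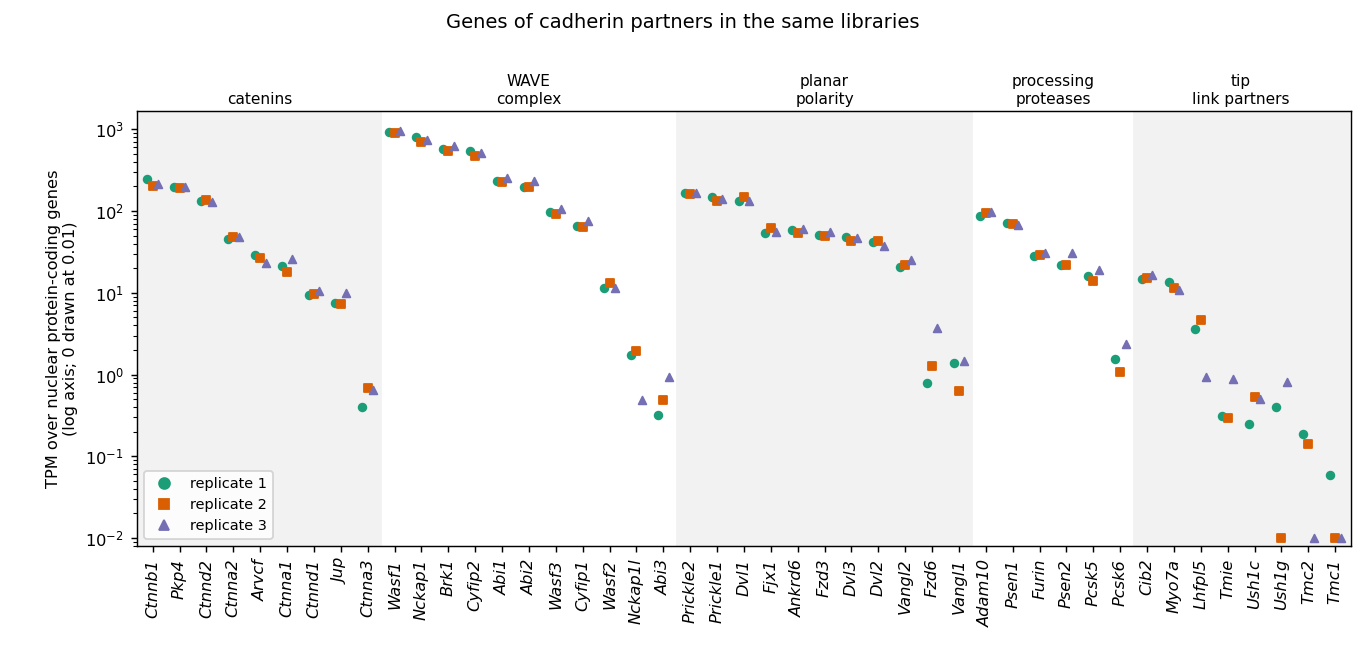
TPM on a log axis in replicates 1 to 3 for genes of catenins, the WAVE complex, planar polarity, processing proteases and tip link partners, with 0 drawn at 0.01. Wasf1 is the highest with a mean of 925 TPM, and Ctnnb1 leads the catenins with 202 to 248 TPM.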

How the data were processed

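Hippocampi were dissociated with papain, live tdTomato-positive cells were sorted, and poly(A) RNA was sequenced. The authors deposited a table of raw gene counts that were not normalized, and the deposited table also gives the merged exon length of each gene in bp, a unit used here as it stands. The submitters' processing notes name STAR and featureCounts on mm10 and GRCm38. Versions, the annotation, strand, the handling of multimapped reads, and read or fragment counting are not given in the sources used here. Counts on antisense or overlapping genes can therefore not be told apart, which touches 10 of the 42 members.

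Gene names came from GENCODE vM21 (52489 of 52636 IDs). TPM was computed over nuclear protein-coding genes, since a noncoding gene of 57 bp, Gm23935, takes 32.7%, 48.3% and 40.5% of TPM over all genes in replicates 1, 2 and 3. Size factors by median of ratios were computed in Python 3.11.15 with numpy 2.4.6, pandas 2.3.3 and scipy 1.17.1, and TMM factors with edgeR 4.0.16 in R 4.3.3, for alternatives only. The scripts were tested on simulated data. Alternatives were the scale, the length, the detection threshold, the filter, the pseudocount and leaving out each replicate. Limits for a count of 0 use 3 counts, and intervals cover counting error only.

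Members and gene lists were chosen with earlier results of these data known. Named genes were all members and the genes of the partner and marker lists. Values in every replicate were to be given for members of at least 10 TPM, known pairs and endothelial genes. The single values of other members, and the promoters shown, were chosen after their values were seen. Protein sequences were not used here, some genes of these name patterns are not reported here, and 0 columns of samples were left out. No test was made, since the replicates form 1 group.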

Additional observations from a re-analysis of the deposited data

How the results depend on the processing

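Of 375 alternatives to the values above, 297 moved them by no more than 1 SD over the replicates or, for counts and CVs, by no more than 1.5 times, and 78 moved them further. Many of the 297 could not have moved further. With 3 replicates, leaving out 1 cannot shift the mean of a member by over 1 SD. Rescaling whole replicates cannot change the share of the 5 highest members. The tally is therefore no measure of robustness. The values above have no sign, so a reversal could be seen only in the order of members. Such reversals were not counted, and the following are examples only. Cdh2, with 85.1 TPM, passed Cdh9, with 71.7 TPM, under the longest transcript as the length. Under the same length Cdh10, with 48.5 TPM, passed Fat4, with 24.6 TPM. Celsr3, with 187 TPM, passed Pcdh20, with 184 TPM, without replicate 3. Pcdh19, with 113 TPM, passed Pcdh8, with 112 TPM, without replicate 1. TPM over all genes lowered the median level of the members to 3.66 TPM and raised their median CV to 15.8%, and all 10 highest members were shared with the main order. With the longest GENCODE vM21 transcript as the length, the median level was 9.15 TPM, and 8 of the 10 highest members were shared. Cdh6, with 3.43 TPM in place of 13.8 TPM, and Cdh10, with 48.5 TPM in place of 23.5 TPM, were among 10 members that moved by over 1.5 times against the median shift, the others being Cdh2, Cdh7, Cdh8, Cdh13, Cdh18, Pcdh1, Pcdh10 and Pcdh15. For Cdh6 the transcript of 8167 bp is longer than the 2632 bp of exons counted, so the 3.43 TPM divides counts by bases that were not counted. The CVs of single members and the order of replicates under TMM and median of ratios were set beside TPM after seeing the data. The median level was 22.6 TPM over the members past the CPM threshold and 6.93 TPM without the members that share exon bases with another gene, an alternative chosen after seeing the data. The median CV was 13.4% over all members with a count. Leaving out 1 replicate at a time gave 31 to 32 members past the CPM threshold, median levels of 11.3 to 11.5 TPM, shares of the 5 highest members of 56.9% to 59.5%, median CVs of 5.58% to 10.3%, and 18 to 29 pairs of neighbours with overlapping ranges. The lowest CV and the lowest number of pairs were those without replicate 3. Other thresholds gave 30 to 33 of the 42 members. Leaving out the 10 members that share exon bases, all of them past the CPM threshold, left 21 past it, out of fewer members. The median SD of log2 levels was 0.12 with a pseudocount of 1 and 0.13 with 0.1. No paired analysis was possible because the replicates form 1 group. Depth limits the lowest members, for which 1 count in replicate 3 weighs more than in replicate 1.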

Other observations

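Relatives of these genes outside the name patterns were also measured, as a list of 19 genes of which 9 reached at least 1 CPM in all replicates. The calsyntenins, which carry cadherin repeats and organise synapses, were the most abundant. Clstn1 had 885 ± 45.0 TPM, Clstn3 244 ± 13.6 TPM and Clstn2 154 ± 8.24 TPM (SD, n = 3 each), so that Clstn1 alone lay above every member of the family described here. The X-linked delta-1 protocadherin Pcdh11x had 4.08, 4.77 and 5.53 TPM, below the other delta-1 genes. Of the desmosomal cadherins, Dsg2 had 9.26 ± 2.05 TPM, Dsc3 4.42 ± 0.931 TPM and Dsc2 2.03 ± 0.744 TPM, while Dsg4 had no count in any replicate. Desmoplakin, Dsp, listed here as a marker of dentate granule neurons, had 73.8 ± 5.69 TPM. The photoreceptor cadherin Cdhr1 had 14.7 ± 2.16 TPM, and Cdhr5 had 0 counts.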
